A study of Mus musculus with 8 samples.

Results

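Polycomb repressive complex genes were followed in mouse embryonic stem cells (ESCs) and in embryoid bodies (EBs), suspended cell clumps that form the early tissues. The 9 genes, Ezh1, Ezh2, Eed, Suz12, Jarid2, Cbx2, Cbx7, Bmi1 and Ring1, were taken by symbol from an expression table of 20215 genes, and each symbol matched 1 row. RNA was sequenced from wild-type (WT) E14 cells and from cells labelled as Uhrf1 knockout (KO), each before differentiation and after 1, 2 and 3 weeks as EBs, for 8 groups with 1 library apiece. ESCs were kept with leukaemia inhibitory factor on gelatin or on feeder fibroblasts, and EBs were started in hanging drops. Each genotype was 1 line, so a difference between the lines that does not come from Uhrf1 cannot be told apart from one that does. No group had a replicate.

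Polycomb proteins keep developmental genes silent through chromatin. Polycomb repressive complex 2 (PRC2) methylates lysine 27 of histone H3 with EZH2 or its paralog EZH1 as the catalytic subunit, and it needs EED and SUZ12 to be stable and active. JARID2 is an accessory subunit that helps to bring PRC2 to its targets in ESCs. Polycomb repressive complex 1 (PRC1) ubiquitinates histone H2A through RING1 or its paralog RNF2, each paired with a PCGF protein such as BMI1. In canonical PRC1 a CBX protein, among them CBX2 and CBX7, binds the methylated lysine that PRC2 leaves. UHRF1 brings the maintenance DNA methyltransferase to newly copied DNA.

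All levels below are RPKM, read counts scaled by transcript length and by the mapped reads of the library, and can be set side by side between genes. Depth was estimated as 173000000 and 178000000 reads for WT and KO ESCs, and as 13000000 to 47200000 reads for the EB libraries. The 95% intervals given with ratios of RPKM are exact binomial (Clopper-Pearson) intervals and cover counting error only. A gene was called apart between 2 libraries when RPKM + 1 differed by 1.5-fold or more. Uhrf1 itself read 78.8, 43.8, 36.8 and 41.0 in WT ESCs and at weeks 1, 2 and 3, and 45.2, 27.1, 34.6 and 31.0 in the libraries labelled KO. It was lower in KO at 4 of 4 stages and was absent from none, and one value per gene cannot tell a full transcript from a truncated one. The ESC markers in the table (4 of 5, with Nanog not analysed here) summed to an RPKM of 1049 in WT and 1082 in KO ESCs and were all at 1 or more. The 6 fibroblast markers (Col1a1, Col1a2, Col3a1, Dcn, Lum and Thy1) summed to 15.9 in WT and 10.6 in KO ESCs, with 4 and 3 of them under an RPKM of 1.

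Of the 9 members, Cbx7 and Bmi1 moved furthest across the libraries. By the 1.5-fold rule they were also the 2 called apart between KO and WT, at week 2, where 16.4% of all genes were. The sequence before their start sites is shown first. Both stretches are the 250 bases before the RefSeq start in the GRCm38.p6 build, written 5′ to 3′ on the strand of the gene, with each CpG, the dinucleotide that DNA methylation acts on, in capitals. The Cbx7 stretch lies at chr15:79932647-79932896 on the minus strand and the Bmi1 stretch at chr2:18676768-18677017 on the plus strand.
Cbx7: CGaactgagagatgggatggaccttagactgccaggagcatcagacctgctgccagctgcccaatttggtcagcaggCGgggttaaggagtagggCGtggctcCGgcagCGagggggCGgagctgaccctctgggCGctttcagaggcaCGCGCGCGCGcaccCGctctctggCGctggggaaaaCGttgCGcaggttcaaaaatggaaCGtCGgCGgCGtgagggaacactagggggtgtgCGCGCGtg
Bmi1: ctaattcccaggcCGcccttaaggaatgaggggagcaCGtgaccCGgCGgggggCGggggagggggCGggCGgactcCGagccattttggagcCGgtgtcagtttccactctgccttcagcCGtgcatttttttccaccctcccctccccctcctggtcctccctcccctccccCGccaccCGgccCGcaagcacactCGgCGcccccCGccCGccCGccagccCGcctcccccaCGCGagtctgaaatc
The Cbx7 stretch holds 23 CpGs and the Bmi1 stretch 21, against a median of 6 over the 32851 promoters of the table. At least as many CpGs were found in 13.3% of all promoters for Cbx7 and in 16.3% for Bmi1. Promoters were matched for 8 of the 9 members (all but Cbx2), and all held more CpGs than the median, from 12 in Eed and 14 in Ezh1 to 30 in Ring1 and 37 in Suz12. The letters TTTCCCGC, TTTCGCGC, TTTGCCGC and TTTGGCGC, forms of the site bound by E2F cell cycle factors, were searched on both strands and may overlap one another. They occurred once before Suz12 and before no other matched member, and 1.86% of all promoters hold at least 1 of them. The E-box CACGTG, searched likewise, occurred once before Bmi1 and in 6.02% of all promoters.

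The first comparison followed the genes from ESCs into EBs. All 5 PRC2 members and Cbx7 fell in EBs, while Bmi1, Ring1 and Cbx2 rose. Cbx7 had the largest fall and Bmi1 the largest rise among the 9. With both genotypes in 1 limma model (genotype and stage terms, 2 ESC against 6 EB libraries), 9 of 9 members had a Benjamini-Hochberg adjusted p under 0.05, 3 higher and 6 lower. The stage terms take up the spread between EB weeks, so these p-values do not cover it. Most of the transcriptome differed between ESCs and EBs, since 43.9% of the 13249 genes tested were called higher and 28.7% lower. ESC and EB libraries also differed in depth and culture form, and the part of each was not tested. The median log2 difference of the 9 was -0.79, and that of all genes 0.25. In bulk RNA, fewer cells of a type and less RNA per cell cannot be told apart.

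**Figure D1:**
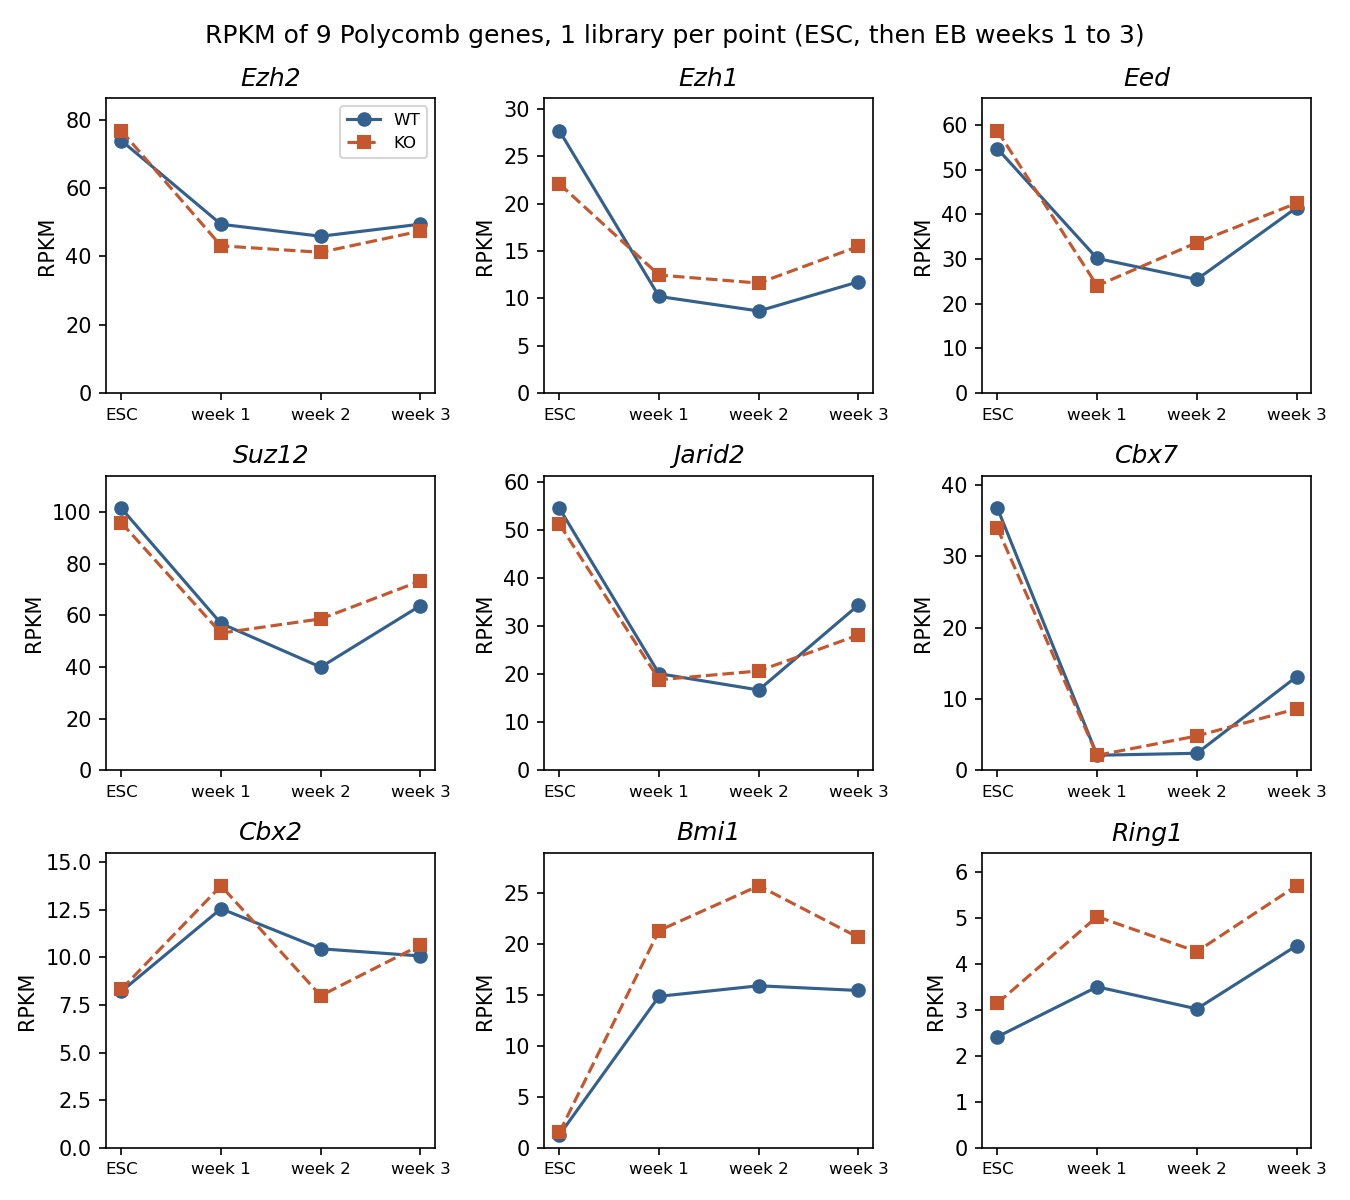
RPKM (vertical axes, each starting at 0) of the 9 genes in ESCs and in EBs at weeks 1, 2 and 3, with WT as circles and KO as squares, 1 library per point. The 5 PRC2 genes and Cbx7 have every EB point below both ESC points, and Bmi1 has every EB point above them.

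Among the catalytic subunits, Ezh2 (chromosome 6, 47480273 to 47545340, minus strand, with this and the positions that follow in the mm9 build) was the more abundant in all 8 libraries. Its RPKM was 73.9 in WT ESCs and 49.4, 45.9 and 49.4 at WT weeks 1, 2 and 3. The KO course began at 76.8 and went on with 43.1, 41.2 and 47.4. The 6 EB values lay in a narrow band from 41.2 to 49.4, below both ESC values, and the fall was 0.70 on the log2 scale of RPKM + 1 (-0.70, SE 0.079, limma adjusted p = 0.00071). Ezh1 (chromosome 11, 101052429 to 101087777, minus strand) read 27.7, 10.2, 8.66 and 11.7 in WT and 22.1, 12.5, 11.6 and 15.5 in KO, in the same order of stages. Its log2 difference was -1.04 (SE 0.16, limma adjusted p = 0.0021). Ezh1 made up 27.3% of the summed Ezh1 and Ezh2 RPKM in WT ESCs and 15.9% to 19.2% in WT EBs, whereas its share in KO was 22.4% in ESCs and 22.0% to 24.6% in EBs. The share was thus lower in each WT EB library than in WT ESCs, while the KO shares spanned a few percentage points, and without replicates the difference between the courses was not tested.

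Eed and Suz12, the core subunits that EZH2 needs, had a trough and a partial return. Eed (chromosome 7, 97103166 to 97129493, minus strand), which encodes the subunit that binds methylated lysine 27, read 54.7, 30.2, 25.4 and 41.5 in WT and 58.8, 24.0, 33.7 and 42.5 in KO. The lowest WT value was at week 2 and the lowest KO value at week 1. Suz12 (chromosome 11, 79806608 to 79847625, plus strand) was the most abundant of the 9 in 7 of 8 libraries, with 101.4, 56.9, 40.0 and 63.8 in WT and 95.9, 53.1, 58.6 and 73.3 in KO. At WT week 2 it stood second, after Ezh2. The log2 differences were -0.80 (SE 0.14, limma adjusted p = 0.0035) for Eed and -0.79 (SE 0.14, limma adjusted p = 0.0040) for Suz12. Without the WT ESC library the adjusted p of Suz12 was 0.0541. Gm17629 overlaps Ezh2 and Gm16706 overlaps Suz12 on the opposite strand, and reads without strand cannot be told apart between such pairs.

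Jarid2 (chromosome 13, 44824843 to 45017012, plus strand) followed the same course with a wider range. It read 54.6, 20.2, 16.8 and 34.5 in WT and 51.3, 18.9, 20.7 and 28.2 in KO. Its week 1 level was 2.71-fold below ESCs in WT (2.65 to 2.77) and 2.72-fold below in KO (2.60 to 2.84). The log2 difference over both genotypes was -1.20 (SE 0.12, limma adjusted p = 0.00048).

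Cbx7 (chromosome 15, 79746237 to 79801549, minus strand) was lowest at week 1 and returned in part. Its RPKM was 36.7 in WT ESCs, 2.12 and 2.40 at WT weeks 1 and 2, and 13.1 at WT week 3. The KO values were 33.9 before differentiation and then 2.12, 4.82 and 8.63. The fall from ESCs to week 1 was 17.3-fold in WT (15.5 to 19.3) and 16.0-fold in KO (13.1 to 19.9). An estimated 340 reads stood behind the WT week 1 value and 93 behind that of KO. The fitted log2 difference was -2.74 (SE 0.25, limma adjusted p = 0.00035), lower than that of all but 0.740% of genes. Ranked among the detected genes (RPKM at least 1), Cbx7 stood at the 81.0 percentile in WT ESCs and at the 9.87 percentile at WT week 1.

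Cbx2 (chromosome 11, 118884276 to 118892584, plus strand), the CBX subunit that can compact chromatin, changed least in level. It read 8.20, 12.5, 10.4 and 10.1 in WT and 8.31, 13.7, 7.98 and 10.6 in KO. The EB values were above both ESC values in 5 of 6 libraries and below them at KO week 2. Its log2 difference of 0.34 (SE 0.12, limma adjusted p = 0.0442) rested on small margins. The adjusted p was over 0.05 without any 1 of 7 of the 8 libraries (0.0505 to 0.214, KO week 2 the exception), and under every other scaling of the libraries, with 0.611 for scaling by median ratios.

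Because Cbx7 fell and Cbx2 did not, the balance among the CBX genes read here turned over. Cbx7 was 65.1% of the summed RPKM of Cbx2, Cbx6, Cbx7 and Cbx8 in WT ESCs and 61.9% in KO ESCs. At week 1 its share was 9.19% in WT and 7.95% in KO, and Cbx2 led with 54.3% and 51.7%. At weeks 2 and 3 Cbx6 led in both genotypes, with 38.4% to 57.0%, and Cbx7 had recovered to 32.4% in WT and 21.8% in KO by week 3.

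Bmi1 (chromosome 2, 18598645 to 18608256, plus strand) ran the other way. It was the least abundant of the 9 in ESCs, with an RPKM of 1.27 in WT and 1.52 in KO. In WT EBs it read 14.9, 15.9 and 15.4 at weeks 1, 2 and 3, and in KO EBs 21.3, 25.7 and 20.6. All 6 EB values lay above both ESC values, and the 3 KO values lay above the 3 WT values. The rise to week 1 was 11.7-fold in WT (10.8 to 12.7) and 14.03-fold in KO (12.8 to 15.3). Its log2 difference was 3.03 (SE 0.12, limma adjusted p = 8.7e-05), higher than that of 97.9% of genes. Bmi1 was 1.33% of the summed RPKM of the 6 PCGF genes in WT ESCs and 1.43% in KO ESCs. It took 15.1% to 16.4% in WT EBs and 20.2% to 25.8% in KO EBs, while the PCGF sum stayed between 94.1 and 105.8 in all 8 libraries.

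Ring1 (chromosome 17, 34157737 to 34161625, minus strand) was low throughout, at 2.42, 3.50, 3.02 and 4.40 in WT and 3.15, 5.03, 4.27 and 5.70 in KO. It rose by 0.48 on the log2 scale (SE 0.11, limma adjusted p = 0.0086), and the adjusted p was 0.077 without the KO ESC library and 0.0732 after scaling by median ratios. Rnf2, the paralog that carries most H2A ubiquitination in ESCs and whose values were picked after they were seen, read 38.9, 63.3, 64.5 and 60.3 in WT and 39.8, 56.4, 52.4 and 47.2 in KO. Ring1 thus made up 4.47% to 6.79% of the pair in WT and 7.32% to 10.8% in KO.

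**Figure D2:**
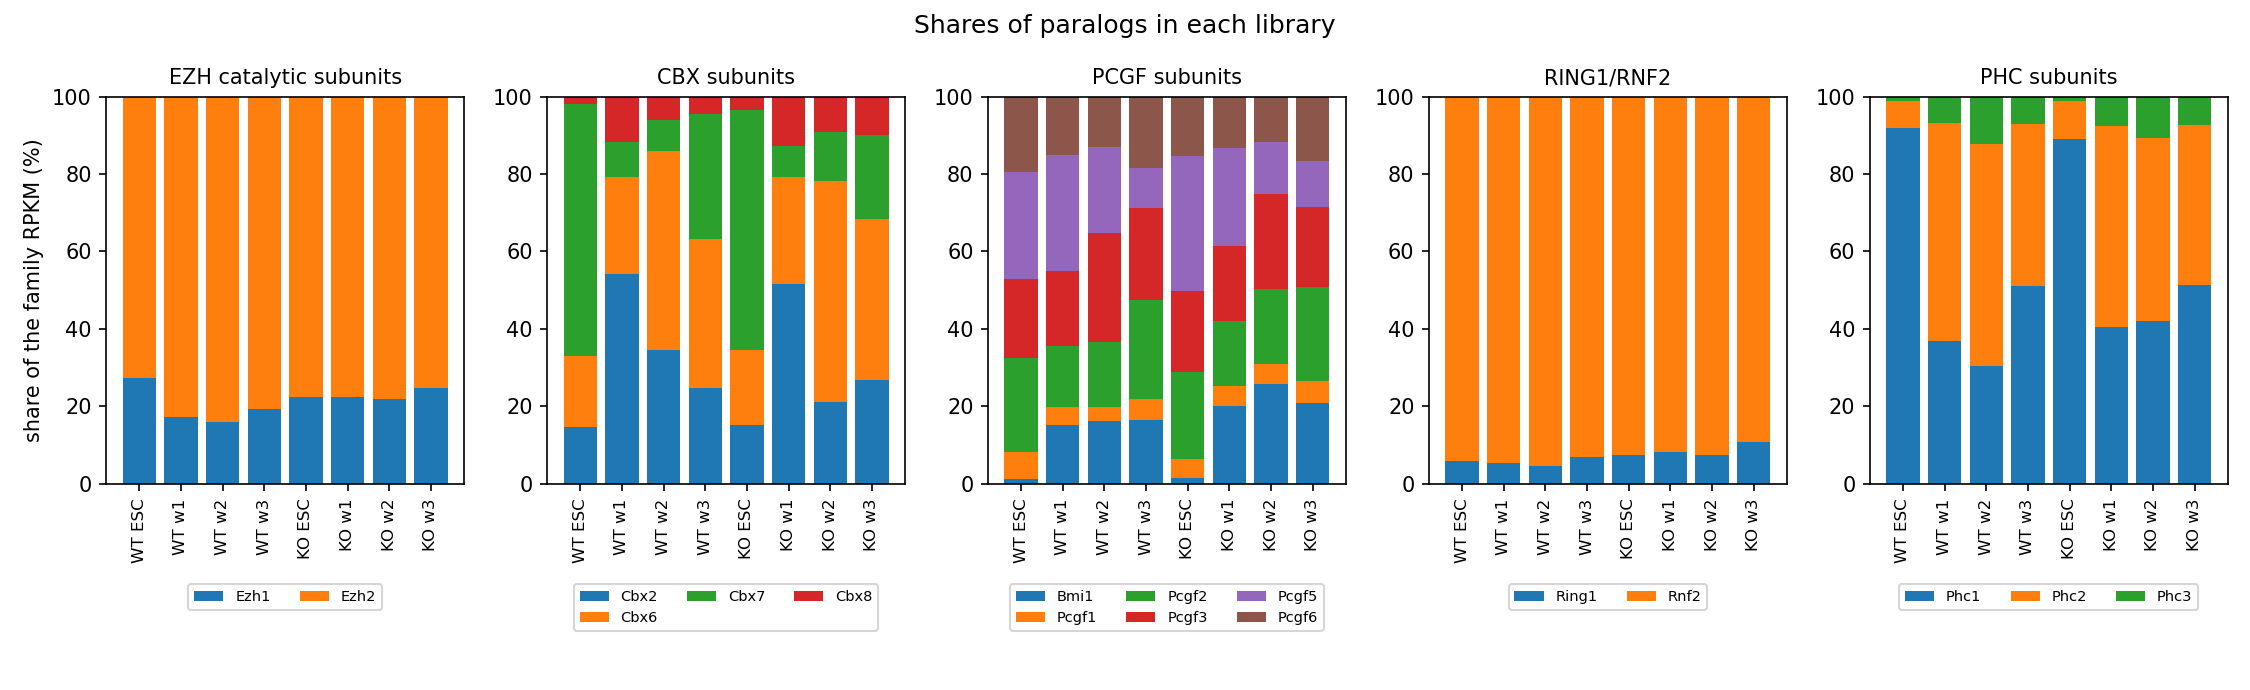
Share of the summed family RPKM (vertical axis, percent) taken by each paralog in the 8 libraries, for EZH, CBX, PCGF, RING1/RNF2 and PHC genes, 1 bar per library. Cbx7 falls from 65.1% and 61.9% of the sum of 4 CBX genes in ESCs to 9.19% and 7.95% at week 1, and Bmi1 rises from 1.33% and 1.43% of the PCGF sum to 15.1% and 20.2%.

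Counted between single libraries by the 1.5-fold rule, the members gave the same picture. From WT ESCs to WT week 1, 1 member was higher (Bmi1) and 5 lower (Ezh1, Eed, Suz12, Jarid2 and Cbx7), where 33.7% of all genes were higher and 26.8% lower. From KO ESCs to KO week 1, 2 were higher (Bmi1 and Cbx2) and 6 lower (the 5 PRC2 genes and Cbx7), where 34% and 27.1% of all genes were. By WT week 3, 2 were higher (Bmi1 and Ring1) and 4 lower (Ezh1, Suz12, Jarid2 and Cbx7), against 38.7% and 20.8% of all genes. By KO week 3, Bmi1 and Ring1 were higher and Ezh2, Jarid2 and Cbx7 lower, against 37.2% and 21.7%. With libraries scaled by median ratios, both week 3 comparisons had 7 members past the limit, the 5 PRC2 genes and Cbx7 lower and Bmi1 higher, and Ring1 was no longer called. Ezh2 at WT week 1 was just outside the limit, with RPKM + 1 at 0.673 of the ESC value, and Suz12 at WT week 3 just inside, at 0.632.

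Marker genes of other cell states moved along the same course. The 4 ESC markers summed to 23.6, 50.2 and 297 at WT weeks 1, 2 and 3 and to 16.0, 132 and 247 in KO, with Pou5f1, the core pluripotency factor, at 9.42, 14.9 and 111 in WT and 3.99, 62.9 and 104 in KO. Proliferation markers (9 of 9 in the table, all at an RPKM of 1 or more) summed to 1156 and 1046 in ESCs and to 592 to 771 in EBs. Top2a, Mcm2, Mcm3, Mcm5, Ccna2, Ccnb1 and Cdk1 fell, with log2 differences from -0.45 (Cdk1) to -1.71 (Mcm5). Mki67 and Pcna did not fall with the sum (0.24 and 0.14, neither called). The 6 fibroblast markers summed to 62.0 and 105 at week 1 of WT and KO and to 1016 to 1512 at weeks 2 and 3. Thy1 did not rise with the sum at week 1. It went from 9.37 in WT and 6.62 in KO ESCs to 0.189 and 0.229. Its log2 difference between EBs and ESCs was -0.22, not called. The part of all these markers in the levels of the Polycomb genes was not tested.

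Other subunits moved in both directions. Of 7 other PRC2 genes, Rbbp7, a histone-binding subunit, rose and Phf19, Mtf2 and E130012A19Rik (Epop), accessory subunits, fell, each past limma's adjusted p of 0.05. Of 21 other PRC1 genes, 10 rose and 6 fell, shares close to the 43.9% and 28.7% of all genes. Of 6 genes that encode H3K27 demethylases or parts of the H2A deubiquitinase, Kdm6a, Kdm6b, Asxl2 and Asxl3 rose and Asxl1 and Bap1 fell, beside the same 43.9% and 28.7% of all genes. These genes outside the 9 were named after their values were seen, except for Phf19 and E130012A19Rik. The deepest fall was that of Phc1, a subunit that links PRC1 complexes, from 138 and 125 in WT and KO ESCs to 15.5 and 17.3 at week 1 (log2 difference -2.65, SE 0.18, limma adjusted p = 0.00017). Phc1 was 91.9% and 89.0% of the PHC family RPKM in ESCs and 30.4% to 51.3% in EBs.

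**Figure D3:**
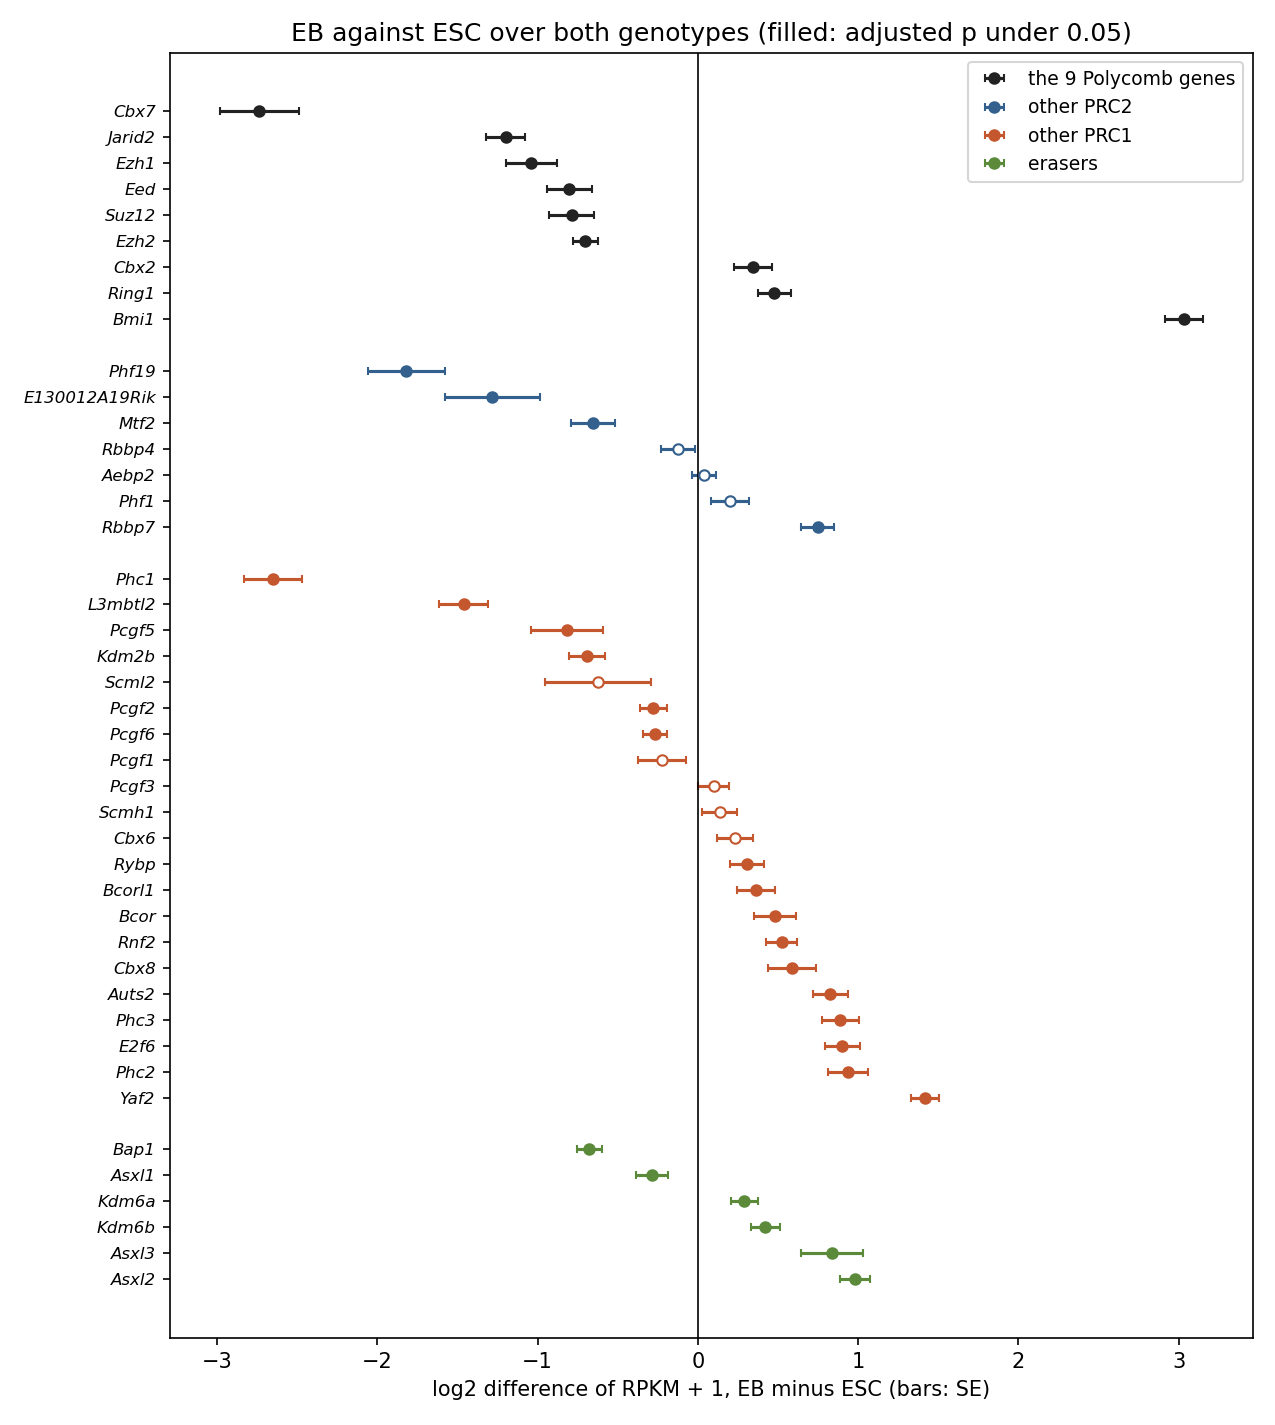
Difference between EBs and ESCs on the log2 scale of RPKM + 1 (horizontal axis, bars are SE) for the 9 genes and for other PRC2, PRC1 and eraser genes, from the limma model over 8 libraries, with filled points at an adjusted p under 0.05. Cbx7 at -2.74 and Phc1 at -2.65 lie furthest left, and Bmi1 at 3.03 furthest right.

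The second comparison set KO against WT at each stage. The counts of members called are given beside the shares of all genes. None of the 9 was called apart in ESCs, where 6.13% of all genes were, none at week 1, where 14.6% were, and none at week 3, where 15.3% were. At week 2, Cbx7 and Bmi1 were higher in KO, 2 of 9 where 16.4% of all genes were called and 10% were called higher. With only 9 genes, these counts do not set the members apart from all genes. The median log2 difference of the 9 was 0.39 at week 2, against 0.05 over all genes, and it lay between -0.0041 and 0.07 at the other stages.

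At week 2, Cbx7 read 2.40 in WT and 4.82 in KO, a ratio of 2.01 (1.70 to 2.37). At week 3 the order was reversed, with 13.1 in WT and 8.63 in KO, which is 1.52-fold lower in KO (1.38 to 1.68) but fell short of the limit on RPKM + 1 (0.682). The ESC marker sum was likewise higher in KO at week 2 (132 against 50.2) and lower at week 3 (247 against 297). Its part in the Cbx7 difference was not tested.

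Bmi1 was higher in KO at 4 of 4 stages, by 1.20-fold in ESCs (1.09 to 1.31), 1.43-fold at week 1 (1.33 to 1.54), 1.62-fold at week 2 (1.51 to 1.73) and 1.34-fold at week 3 (1.25 to 1.44). Ring1 was also higher in KO at 4 of 4 stages, by 1.30-fold (1.20 to 1.41), 1.44-fold (1.19 to 1.72), 1.41-fold (1.17 to 1.70) and 1.30-fold (1.103 to 1.52). Both kept that order under all 3 other scalings. Over the 4 stages the log2 difference was 0.42 for Bmi1 (SE 0.10, unadjusted p = 0.0075) and 0.35 for Ring1 (SE 0.091, unadjusted p = 0.0097). Neither passed over all genes tested, with limma adjusted p of 0.192 (0.144 to 0.58 over the alternatives) and 0.208 (0.187 to 0.583). The limma model called 0 of 13249 genes between genotypes (0%), with 1984 genes at an unadjusted p under 0.05. Uhrf1, the targeted gene, was itself not called (log2 difference -0.48, SE 0.13, limma adjusted p = 0.213). Rnf2, the paralog of Ring1, was lower in KO at all 3 EB stages, by 1.12-fold, 1.23-fold and 1.28-fold.

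No direction was common to all 5 PRC2 genes at any stage. Their KO over WT ratios ran from 0.798 to 1.07 in ESCs, from 0.797 to 1.22 at week 1, from 0.897 to 1.47 at week 2 and from 0.819 to 1.32 at week 3. At week 1 all but Ezh1 were lower in KO, and at week 2 all but Ezh2 were higher. Suz12 at week 2 lay just outside the limit, with 40.0 in WT and 58.6 in KO (ratio 1.47, 1.41 to 1.52). Ezh1 was lower in KO ESCs (0.798, 0.781 to 0.814) and higher in KO at each EB week (1.22, 1.34 and 1.32). Over stages the 5 log2 differences were between -0.09 and 0.18, with limma adjusted p from 0.58 to 0.88. Those of Cbx2 and Cbx7 were -0.03 (SE 0.10) and 0.03 (SE 0.22).

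**Figure D4:**
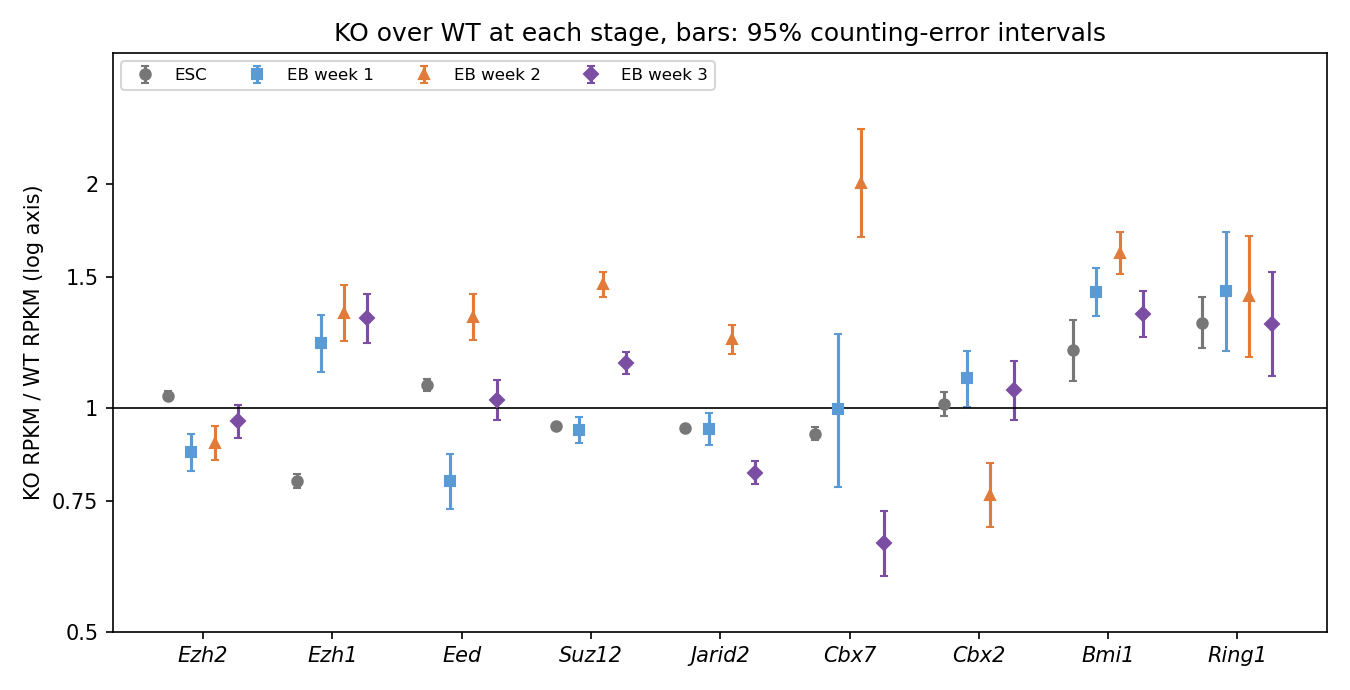
KO RPKM over WT RPKM (vertical log axis) for the 9 genes at ESC and EB weeks 1, 2 and 3, 1 library per genotype and stage, with 95% counting-error intervals as bars. Bmi1 and Ring1 lie above 1 at all 4 stages, and Cbx7 lies at 2.01 at week 2 and at 0.658 at week 3.

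Other subunits gave a few larger differences between the lines. Scml2, a PRC1-associated gene, stood at 1.89 in WT against 11.04 in KO before differentiation, at 1.30 and 6.17 at week 2, and at 2.70 and 6.36 at week 3, all past the limit. Phf19 was 5.54 in the WT and 11.3 in the KO ESC library. E130012A19Rik (Epop) read 3.47 in WT and 12.3 in KO at week 2. Of the 21 other PRC1 genes, 1 was called in ESCs (Scml2), 0 at week 1, 4 at week 2 (Scml2, Phc1 and Cbx8 higher, Pcgf5 lower) and 2 at week 3 (Scml2 and Cbx8). Of the 7 other PRC2 genes the calls were Phf19 in ESCs and E130012A19Rik at week 2. Of all genes 6.13%, 14.6%, 16.4% and 15.3% were called in ESCs and at weeks 1, 2 and 3, and the PRC1 counts lie near or below these shares. Phc1, Cbx8 and Pcgf5 were named here after their values were seen.

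Genes that Polycomb complexes are known to hold silent were read beside the subunits. Cdkn2a and Cdkn2b, neighbouring genes for inhibitors of cell cycle entry and classical targets of BMI1 and CBX7 repression in mouse fibroblasts, were higher in KO at 4 of 4 stages. Cdkn2a read 11.9, 1.67, 5.70 and 4.71 in WT and 17.5, 4.46, 15.2 and 18.6 in KO, and the KO value was past the limit at weeks 1, 2 and 3. Its KO over WT ratio grew to 3.94 at week 3 (3.23 to 4.84). Cdkn2b read 4.01, 2.01, 6.90 and 11.9 in WT and 6.19, 4.20, 11.6 and 29.7 in KO, also past the limit at weeks 1, 2 and 3. Over stages their log2 differences were 1.15 (SE 0.21) and 0.81 (SE 0.14), with limma adjusted p of 0.129 and 0.12.

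The 38 Hox genes read here, textbook PRC2 targets, were all under an RPKM of 1 in both ESC libraries. At week 1, 18 of the 38 read higher in KO and 19 lower by any amount. Of all 20215 genes, 43.4% read higher and 38.5% lower. Genes with equal values in both lines, such as those at 0, enter neither share here or below. Hoxc8 read 0.811 in WT and 1.88 in KO, and Hoxc10 read 3.42 and 1.32. At week 2, 35 read higher and 3 lower, where 49.2% of all 20215 genes read higher and 35.7% lower. Hoxd13 (1.89 in WT and 15.6 in KO) and Hoxa13 (0.407 and 3.29) differed most. At week 3, 7 read higher and 30 lower, where 43.8% and 42.5% of all genes did. Hoxa5 (5.73 in WT and 1.14 in KO), Hoxb5 (4.37 and 0.839) and Hoxc4 (3.91 and 0.826) differed most. Most levels were low, since 11 of the 38 at week 2 and 17 at week 3 reached an RPKM of 1 in both lines. Over all 38 the median log2 difference was 0.44 at week 2 and -0.39 at week 3, against 0.05 and 0.02 over all genes tested. Tissue markers moved at the same stages. Tubb3, listed as a neuronal marker, read 5.88 in WT and 11.7 in KO at week 2, and 53.4 and 15.9 at week 3. This is the order of the Hox genes. Tubb3 also read 35.9 in WT and 24.8 in KO ESCs, so its level does not stand for neurons alone. The ESC marker sum changed order likewise, with 50.2 in WT and 132 in KO at week 2, and 297 and 247 at week 3. Of the other EB tissue markers, Afp, Myh6, Tnnt2, Cdh5 and Ptprc were lower in KO at both weeks, and Hbb-bh1 was higher at both. None of them changed order between the weeks as Tubb3 did. The 7 markers summed to 5014 in WT and 1307 in KO at week 2, mostly Afp (4602 and 1096). At week 3 they summed to 1156 and 276. The part of the tissue and ESC markers in the Hox differences was not tested. Hox genes lie close together with antisense transcripts, and the libraries kept no strand.

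The genes most like each member were found by the Pearson correlation of log2(RPKM + 1) over the 8 libraries, among 6754 genes that reached an RPKM of 5 and a log2 range of 1. All points share the contrast of ESCs against EBs, so the values describe these libraries. For Cbx7 the closest were Prdm14 (r = 0.995) and Zfp296 (0.994), both genes of the pluripotent state, and Gng3 (0.993), and over the 6 EB libraries alone r was 0.994, 0.997 and 0.987. Prdm14 read 6.59, 0.275, 0.400 and 2.65 in WT and 7.93, 0.235, 0.817 and 2.01 in KO. Like Cbx7, it was highest in ESCs and lowest at week 1 in both lines. In ESCs the KO value was the higher for Prdm14 and the WT value the higher for Cbx7. For Bmi1 they were Tnfaip1, Sec63 and Gdf11 (0.997 to 0.998, and 0.906 to 0.948 over EBs). Eed was closest to Dyrk3, Eras and 4930447C04Rik, Suz12 to Rangrf, Npepps and Trp53, Jarid2 to Rundc3a, Dnajc21 and Sgtb, and Ezh1 to Ide, Abcc1 and Lsm12, with r from 0.982 to 0.995 over 8 libraries. Ezh2, Cbx2 and Ring1 ranged over less than 1 log2 unit and were left out.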

How the data were processed

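Poly(A) RNA was copied with random hexamers. For the alignment to mm9 the submitters' processing notes name Bowtie 0.12.7, TopHat 1.1.4 and SAMtools 0.1.18, and for RPKM by RefSeq gene Cufflinks 1.1.0. The authors deposited these on a log2 scale after adding 1, a unit read from the values, which were turned back to RPKM on a grid of 0.0001. All 8 columns were used. Some genes of these families are not reported here and are left out of the list counts and family sums. The 9 genes and all lists were chosen with earlier results of these data known.

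KO was compared with WT at 4 stages, and weeks 1 and 3 with ESCs in each genotype, on RPKM + 1 (pseudocount 1) with no rescaling, for genes whose RPKM reached 1 in one of the pair. With 1 library per group these comparisons have no p-value. Effects over libraries were fitted in R 4.3.3 by limma 3.58.1, with terms for genotype and stage, a mean trend and 3 residual degrees of freedom, on the 13249 genes whose RPKM reached 1 in 2 libraries, adjusted by the Benjamini-Hochberg method over all of them. The labels do not say that the libraries came from separate cultures, so p-values measure only the spread between these libraries. The linear model treats the stages as replicates of the genotype effect. For EBs against ESCs it treats KO and WT as replicates at each stage, apart from a common difference between them. The stage terms take up the spread between weeks 1, 2 and 3, so those p-values do not cover it. Depth was estimated from the smallest step of RPKM times the length of the longest GENCODE M1 transcript, over 5676 genes between 800 and 6000 nt. Positions are those of GENCODE M1 (mm9), and promoters are RefSeq sequences.

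Named genes were the 9, at most 4 other list genes per comparison with the largest change past 1.5-fold, the 3 genes most like each member and Uhrf1. On simulated data the genotype model recovered 69% of genes changed by 1 on the log2 scale and 87% of those changed by 2, with 5 false calls over 13249 genes. Python 3.11.15 was used with pandas 2.3.3, numpy 2.4.6, matplotlib 3.10.9 and scipy 1.17.1. Alternatives were a pseudocount of 0.1, other filters, 3 scalings, a 2-fold limit, no mean trend and leaving out each stage or library.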

Additional observations from a re-analysis of the deposited data

Results flagged for a closer look

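Among the genes named, Hoxb2 and Hoxb3 were past 1.5-fold in opposite directions at weeks 2 and 3, which drew attention because the KO line was higher at one stage and lower at the next. The log2 difference of KO against WT on RPKM + 1 was 0.72 at week 2 and -0.76 at week 3 for Hoxb2, and 0.73 and -1.20 for Hoxb3. Each rests on 1 library per genotype and stage, and the difference between the stages was not tested.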

How the results depend on the processing

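The counts of members between KO and WT were 0 in ESCs and at week 1 under every setting run. At week 2 the 2 members became 1 with a filter at RPKM 5 (Bmi1, since Cbx7 did not reach 5 in either library), 1 with scaling to an equal RPKM total (Cbx7) and 0 at 2-fold. At week 3 Cbx7, lower in KO, made the count 1 with a pseudocount of 0.1, with scaling by upper quartile and with scaling to an equal RPKM total. At 2-fold the counts against ESCs were 3 at WT week 3, 4 at KO week 1 and 2 at KO week 3. With scaling by median ratios the median of all genes at WT week 3 against ESCs moved from 0.25 to -0.08, and the calls from 5057 higher and 2723 lower to 3886 higher and 4075 lower, and at KO week 3 from 4814 and 2806 to 3725 and 4006. Scaling to an equal RPKM total turned the KO against WT calls from 1270 higher and 814 lower to 1008 and 1093 at week 2, from 998 and 1003 to 779 and 1392 at week 3, and from 424 and 253 to 345 and 370 in ESCs. The cause was not tested.

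For EBs against ESCs, leaving out 1 library at a time gave 7 to 9 members called. For KO against WT over stages, leaving out a stage gave 0 members each time, as in the full model. Without ESCs the model called 6 genes, none of them a member. The KO against WT log2 difference over stages changed sign for Cbx7 with scaling by median ratios (-0.0042) and to an equal RPKM total (-0.034), and for Eed with the latter (-0.013). Leaving out 1 stage at a time gave -0.22 to 0.22 for Cbx7 and -0.060 to 0.18 for Eed (both lowest without week 2), -0.087 to 0.071 for Cbx2 (highest without week 2) and -0.15 to 0.038 for Jarid2 (highest without week 3). None of these had an adjusted p under 0.05. Of the other fitted log2 differences under alternatives, 212 kept their direction and side of the threshold and 15 lost the call, most of them for Cbx2. No paired analysis was possible because every group holds 1 library, so replicate numbers match no samples beyond the stages, which the genotype model already sets side by side.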
